A study of Mus musculus with 48 samples.

Results

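Toll-like receptors are membrane proteins with which cells of the innate immune system recognise microbial molecules and debris of damaged cells. A set of 10 genes of this system was followed here in mouse brain RNA-sequencing libraries: the receptor genes Tlr1, Tlr2, Tlr3, Tlr4, Tlr7, Tlr9 and Tlr13, the co-receptor gene Cd14, the secreted receptor partner gene Ly86 (MD-1) and the adaptor gene Myd88. They were chosen by symbol, and all 10 of 10 were found among the 48709 genes counted. Tlr1, Tlr2 and Tlr4 act at the cell surface, where Tlr2 pairs with Tlr1 or Tlr6 to bind lipopeptides and Tlr4 binds lipopolysaccharide with the help of Cd14. Tlr3, Tlr7, Tlr9 and Tlr13 act in endosomes on double-stranded RNA, single-stranded RNA, unmethylated DNA and bacterial ribosomal RNA, respectively. Ly86 binds Cd180, a relative of Tlr4. Myd88 passes the signal on from each of these receptors except Tlr3. In the brain most of these genes are known from microglia, the resident macrophages, while Tlr3 is also known from astrocytes and neurons.

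The study asked how loss of Fmn2, a gene for an actin-nucleating formin, alters the ageing brain and the brain with amyloid. Whole-tissue RNA of 46 mice of strain C57BL/6J in 8 groups was sequenced. Untreated Fmn2+/+ mice and mice constitutively lacking Fmn2 (Fmn2-/-, labelled FMN2 knock out) were 3 months old (5 and 5 mice) or 8 months old (3 and 5 mice), and their dentate gyrus was taken. A cross with APPPS1-21 mice, which carry human APP with familial Alzheimer's mutations driven in neurons by the Thy1 promoter, gave dentate gyrus of 9 mice labelled FMN2 +/+ APP and 7 mice labelled FMN2-/-_APP, all 3 months old. No mouse of the cross without APP was analysed here. The other 6 APP and 6 wild-type mice were labelled 4 months old. Their tissue label says dentate gyrus whereas their sample titles name the prefrontal cortex, and dentate granule cell markers summed to 89.6 to 126 CPM (TMM-normalised read counts scaled to library size) in these 12 mice against at least 504 CPM in every other mouse, with cortical layer markers at 406 to 464 CPM against at most 272 CPM. The study's methods name male mice, and cell types were not isolated.

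Reads counted on genes ranged from 6818809 to 43921030 per mouse, with at most 11675280 in 7 of the 8 mice of 8 months. Reads on Fmn2 went against the labels of the cross: they stood at 18.9 to 23.4 CPM in the mice labelled FMN2 +/+ APP and at 83.3 to 101.8 CPM in those labelled FMN2-/-_APP, against 22.3 to 27.4 CPM in 3-month Fmn2-/- and 93.2 to 109 CPM in 3-month Fmn2+/+ mice. The 2 groups of the cross are therefore called by their labels throughout. The 8-month Fmn2-/- mice 2 and 3 differed from each other by less than any other pair of their group (chi-square per degree of freedom 1.62 against 3.502 to 6.40). The 2 runs of 1 mouse gave 2.15 for replicate 7 labelled FMN2-/-_APP and 1.72 for replicate 7 labelled FMN2 +/+ APP. Whether mice 2 and 3 are 1 mouse was not tested, and they count as 2 of the 5 mice. Choroid plexus markers summed to 4125 CPM in 1 Fmn2-/- mouse of 3 months (replicate 4) and to 9130 and 5994 CPM in replicates 4 and 5 labelled FMN2 +/+ APP, against at most 608 CPM in the other 43 mice. Because whole tissue was sequenced, a lower level can come from fewer cells of a type or from less RNA per cell, which cannot be told apart.

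Positions are given in build mm10. Ly86 (ENSMUSG00000021423) spans chr13:37345208-37419036, Tlr2 (ENSMUSG00000027995) chr3:83836272-83841767, Tlr1 (ENSMUSG00000044827) chr5:64924679-64933563, Tlr13 (ENSMUSG00000033777) chrX:106143204-106160493 and Tlr7 (ENSMUSG00000044583) chrX:167304929-167330558. Tlr4 (ENSMUSG00000039005) spans chr4:66827584-66930284, Tlr9 (ENSMUSG00000045322) chr9:106222598-106226883, Tlr3 (ENSMUSG00000031639) chr8:45395665-45411080 and Myd88 (ENSMUSG00000032508) chr9:119335934-119341411. All 10 are protein-coding. Exons of Myd88 overlap those of Acaa1a on the other strand, and the library kit does not keep strand, so reads from the shared stretch cannot be told apart. Tlr1 is similar in sequence to its relative Tlr6, and how the counting treated reads that match both was not tested.

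Promoter windows of 300 bases (250 before to 50 from the start site) were read from RefSeq (GRCm38.p6) for 7 of the 10 genes, in 8 windows. Cd14, Tlr4 and Tlr7 had no window in the table, and Tlr1 had 2. Windows are printed for the 4 genes with a window that were called higher in the 4-month amyloid mice described further on, for Tlr1 the 1 nearer to the annotated start of the gene. Each is written 5′ to 3′ on the gene's own strand, and capitals mark matches to a searched motif.
Tlr2, chr3:83841559-83841858, minus strand: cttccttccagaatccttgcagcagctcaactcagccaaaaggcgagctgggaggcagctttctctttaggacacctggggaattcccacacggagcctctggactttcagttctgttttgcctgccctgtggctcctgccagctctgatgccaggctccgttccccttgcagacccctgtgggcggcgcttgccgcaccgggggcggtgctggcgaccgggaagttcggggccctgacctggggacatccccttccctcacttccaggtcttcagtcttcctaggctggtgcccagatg
Ly86, chr13:37345095-37345394, plus strand: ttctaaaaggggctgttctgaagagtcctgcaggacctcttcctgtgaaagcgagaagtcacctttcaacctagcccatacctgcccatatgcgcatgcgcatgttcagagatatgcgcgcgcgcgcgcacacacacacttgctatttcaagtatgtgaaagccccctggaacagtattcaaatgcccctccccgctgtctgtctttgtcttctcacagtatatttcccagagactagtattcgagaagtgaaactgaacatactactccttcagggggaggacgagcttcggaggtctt
Tlr1, chr5:64933509-64933808, minus strand: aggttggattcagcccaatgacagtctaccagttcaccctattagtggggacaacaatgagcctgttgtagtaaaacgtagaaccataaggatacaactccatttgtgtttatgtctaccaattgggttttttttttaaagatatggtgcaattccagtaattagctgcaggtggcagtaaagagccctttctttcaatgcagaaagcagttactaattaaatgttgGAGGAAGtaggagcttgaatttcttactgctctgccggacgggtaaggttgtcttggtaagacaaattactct
Tlr13, chrX:106143025-106143324, plus strand: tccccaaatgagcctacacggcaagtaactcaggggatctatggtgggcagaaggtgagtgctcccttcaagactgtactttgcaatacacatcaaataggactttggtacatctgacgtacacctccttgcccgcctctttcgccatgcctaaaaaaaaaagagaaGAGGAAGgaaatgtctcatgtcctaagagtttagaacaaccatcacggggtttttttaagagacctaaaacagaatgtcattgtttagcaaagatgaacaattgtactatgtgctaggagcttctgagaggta
Searched on both strands were the core site of the myeloid factor PU.1 (GAGGAAG), an NF-kB site (GGG and TTTCC with any 2 bases between), the interferon-stimulated response element (GAAA repeated after any 2 bases) and the AP-1 site (TGANTCA). The PU.1 core lay 23 bases before the start of Tlr1, 83 bases before that of Tlr13, and at 2 places in the window of Tlr9 (112 bases before and 12 after the start). So 3 of the 8 windows held it, and 13.6% of all 32851 windows in the table did. The Tlr3 window held the NF-kB letters 211 bases before the start (1.63% of all windows), the Myd88 window the interferon letters 40 bases before it (3.44%), and the Tlr9 window the AP-1 letters 58 bases before it (7.81%). No match overlapped another. The windows of Tlr2 and Ly86 and the other window of Tlr1 (chr5:64932650-64932949) held none of these motifs as written. Other forms of these sites, such as of the NF-kB site, were not searched, and these matches describe letters and not binding.

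Per exon length, Tlr3 and Ly86 transcripts were the most abundant of the 10 in the dentate gyrus, and Tlr1, Tlr4 and Tlr9 the least. In 3-month Fmn2+/+ mice the level of Tlr3 was 3.57 ± 0.450 FPKM (CPM per kilobase of exon, mean ± SD, n = 5) and that of Ly86 2.16 ± 0.211 FPKM. Myd88 stood at 1.94 ± 0.154 FPKM and Cd14 at 1.04 ± 0.138 FPKM in the same mice, whereas Tlr1, Tlr4, Tlr9 and Tlr2 lay between 0.119 and 0.290 FPKM. The same 4 genes, Tlr3, Ly86, Myd88 and Cd14, stood at the top in all 8 groups, but Ly86 led in both 4-month groups and in both groups of the cross, and Cd14 came second in the 4-month APP mice (8.13 ± 1.11 FPKM for Ly86 and 3.21 ± 0.649 FPKM for Cd14, n = 6). The ranges of neighbouring groups in the order of a gene's levels overlapped with 2 exceptions: Tlr1 was higher in every 4-month APP mouse than in any mouse labelled FMN2 +/+ APP, the next group, and Tlr9 was higher in every 4-month wild-type mouse than in any 3-month Fmn2+/+ mouse, the next group in its order. Myd88 varied least over all 46 mice, with its highest level 1.60 times its lowest. Tlr9 (19.1 times) and Tlr1 (13.4 times) varied most, and both fell to as few as 2 and 1 reads in single mice of 8 months.

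**Figure D1:**
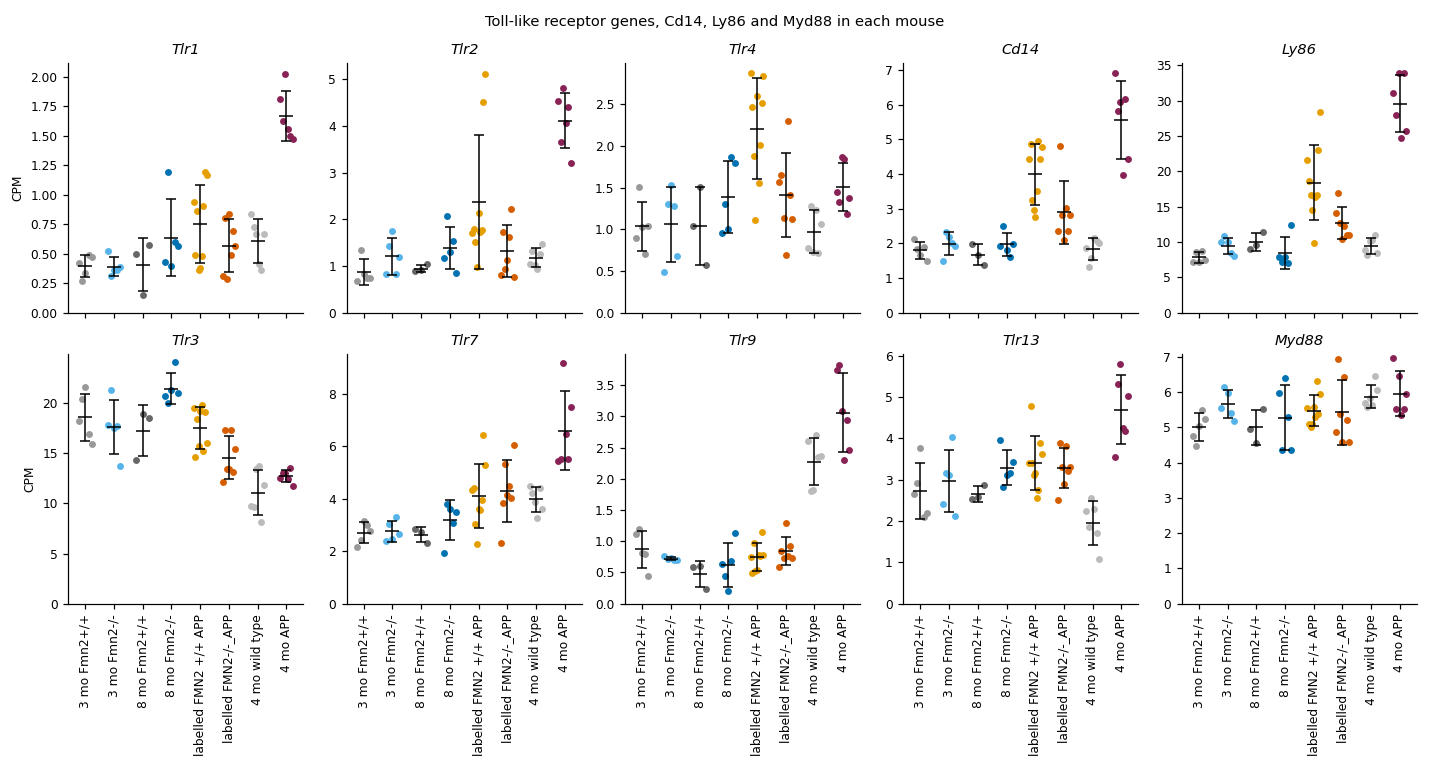
Level of each gene in each mouse, in CPM (linear axis from 0), for the 8 groups. Each dot is 1 mouse, the horizontal mark is the group mean and the bar is 1 SD. For 6 of the genes (Tlr1, Tlr2, Tlr7, Tlr13, Cd14 and Ly86) all 6 APP mice of 4 months lie above all 6 wild-type mice of 4 months.

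Amyloid in the 4-month mice came with higher levels of 6 of the 10 genes, and none of the 10 was called lower. The surface receptors Tlr1 and Tlr2, the co-receptor Cd14, the receptor partner Ly86 and the endosomal receptors Tlr13 and Tlr7 rose, with fitted changes from 1.66-fold for Tlr7 to 3.45-fold for Tlr2. Calls needed an adjusted p under 0.05 and a log2 change of 0.5 or more in either direction. All 10 genes passed the filter on low counts. Of all 16733 genes tested, 2.34% were called in either direction and 2.19% were called higher. The median log2 fold change was 1.01 over the 10 genes, beside -0.00 over all genes tested.

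Ly86 stood at 8.24, 9.52 and 11.0 CPM (lowest, median and highest) in the 6 wild-type mice and at 24.7, 29.5 and 33.9 CPM in the 6 APP mice. The lowest APP mouse had more than 2 times the level of the highest wild-type mouse. The fitted log2 fold change was 1.65 (standard error 0.0999). Its adjusted p, by the quasi-likelihood test of edgeR adjusted after Benjamini and Hochberg like all adjusted p below, was 3.4e-09. Cd14 (ENSMUSG00000051439, chr18:36725067-36726798), which presents ligands to Tlr4 and Tlr2, stood at 1.33, 1.94 and 2.17 CPM in wild-type and at 3.97, 5.94 and 6.92 CPM in APP mice. The groups did not overlap, and the log2 fold change was 1.61 (standard error 0.159, adjusted p = 2.25e-06).

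Tlr2 was the receptor with the largest change. Its level was 0.938, 1.15 and 1.47 CPM in wild-type mice and 3.22, 4.23 and 4.81 CPM in APP mice, again with no overlap. The log2 fold change was 1.79 (standard error 0.145, adjusted p = 1.75e-07). Tlr1, its partner for triacylated lipopeptides, stood at 0.361, 0.669 and 0.835 CPM in wild-type and at 1.48, 1.59 and 2.02 CPM in APP mice. Every APP mouse was above every wild-type mouse, at a log2 change of 1.44 (standard error 0.194, adjusted p = 9.55e-05).

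Among the endosomal receptors, Tlr13 stood at 1.07, 2.05 and 2.55 CPM in wild-type and at 3.54, 4.64 and 5.80 CPM in APP mice. The groups were apart and the log2 fold change was 1.30 (standard error 0.173, adjusted p = 9.19e-05). Tlr7 showed a smaller change, from 3.28, 4.06 and 4.49 CPM to 5.43, 6.00 and 9.16 CPM. The groups did not overlap for Tlr7 either, at a log2 change of 0.73 (standard error 0.136, adjusted p = 0.00258). For 6 of the 10 genes every APP mouse was thus above every wild-type mouse, which held for 2.43% of all genes tested.

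The remaining 4 genes were not called. Tlr4 stood at 0.722, 0.927 and 1.29 CPM in wild-type and at 1.18, 1.41 and 1.87 CPM in APP mice, and 5 of the 6 APP mice were above all wild-type mice (log2 fold change 0.63, standard error 0.191, adjusted p = 0.0911). Tlr9 stood at 1.81, 2.36 and 2.70 CPM against 2.29, 3.02 and 3.82 CPM, with overlapping groups (log2 fold change 0.44, standard error 0.156, adjusted p = 0.162). Tlr3 differed by 0.22 (standard error 0.110, adjusted p = 0.389), with wild-type mice from 8.12 to 13.7 CPM and APP mice from 11.8 to 13.5 CPM. Myd88 was at 5.88 ± 0.331 CPM in wild-type and 5.96 ± 0.629 CPM in APP mice (SD, n = 6 each), a log2 change of 0.03 (standard error 0.0880, adjusted p = 0.938). All 6 APP libraries ran on lane 7 and all 6 wild-type libraries on lane 5, so lane and genotype cannot be told apart.

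**Figure D2:**
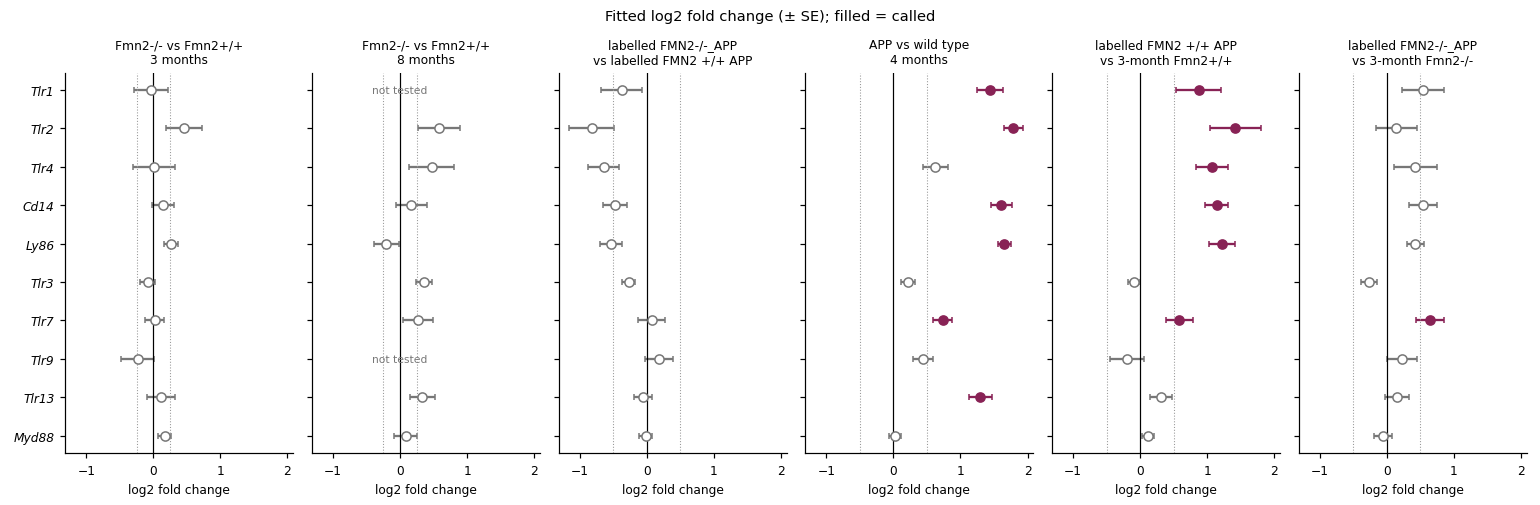
Fitted log2 fold change of each gene (horizontal axis, ± 1 standard error) in 6 comparisons, 1 per panel. Filled points were called, open points were not, dotted lines mark the fold threshold, and Tlr1 and Tlr9 were not tested at 8 months. Called points number 6 of 10 in the 4-month APP mice, 6 in the mice labelled FMN2 +/+ APP against 3-month Fmn2+/+ mice, 1 in the mice labelled FMN2-/-_APP against 3-month Fmn2-/- mice and 0 in each comparison of Fmn2 groups. Where mice of the cross are set against mice outside it, the groups also differed in reads on Fmn2.

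The markers of microglia moved with these genes. Of a list of 16 microglial markers (among them Cx3cr1, P2ry12 and Csf1r), 14 were called higher in the 4-month APP mice and none lower. Their summed level was 479 to 513 CPM in wild-type and 807 to 1025 CPM in APP mice, and none of the 16 was at 0. Of 12 genes of microglia near plaques, 9 were also called higher, led by Cst7 (log2 fold change 7.81, from 0.147 CPM on average in wild-type mice) and Clec7a (6.61, from 0.125 CPM). Both Cst7 and Clec7a passed the filter on low counts only through the APP mice, so the share called depends on the filter. By contrast, 7 markers of monocytes and neutrophils summed to 0.365 to 1.88 CPM in wild-type and 0.624 to 1.16 CPM in APP mice, and 7 markers of border macrophages to 6.51 to 10.3 CPM and 8.86 to 11.4 CPM. None of the former list had enough reads to be tested, and none of the 5 tested of the latter was called.

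Each gene was therefore set against the mean log2 level of the 16 microglial markers in the same mouse. The APP minus wild-type difference of this log2 ratio was 0.92 for Tlr2, 0.77 for Ly86, 0.71 for Cd14 and 0.59 for Tlr1, so these transcripts rose by more than the microglial markers did. For Tlr2, Ly86 and Cd14 the ratios of the 6 APP and the 6 wild-type mice did not overlap, and for Tlr1 5 of 6 APP mice were above all wild-type mice (two-sided exact permutation test over mice, p = 0.00216 for Tlr2, Ly86 and Cd14, which is the smallest it can give, and p = 0.00649 for Tlr1). For how many of all genes this ratio set the groups apart was not counted. For Myd88, Tlr3 and Tlr9, which were not called above, the difference of the ratio was -0.85, -0.65 and -0.46. The mean of the markers itself was 5.42 in APP and 4.55 in wild-type mice, so a gene with no change has a ratio lower by that difference, and no test is given for these 3. The ratio differed by 0.42 for Tlr13 (exact p = 0.0584), -0.16 for Tlr7 (exact p = 0.344) and -0.23 for Tlr4 (exact p = 0.271). The test was run on all 10 genes without adjustment, and the results for Myd88, Tlr3 and Tlr9 are not given. The marker list holds the complement genes C1qa, C1qb and C1qc. Without these 3 genes the difference for Tlr13 was 0.51 (exact p = 0.0217) and those of Tlr2, Ly86, Cd14 and Tlr1 kept their direction and stayed under 0.05. Levels of other cell types that express Tlr3, Tlr9 or Myd88 enter the same ratio, and their part in it was not tested.

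**Figure D3:**
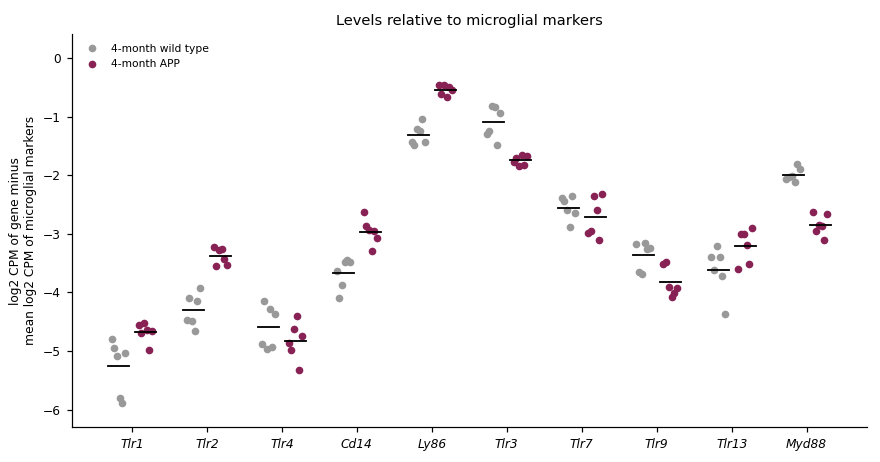
Level of each gene relative to microglial markers in the 4-month mice, as the log2 CPM of the gene minus the mean log2 CPM of 16 markers (vertical axis). Each dot is 1 mouse, grey for wild type and purple for APP, and the line is the group mean. The groups are apart and higher in APP mice for Tlr2, Cd14 and Ly86, and apart and lower for Tlr3 and Myd88, whose own levels were not called while the markers' mean was higher.

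Further along the pathway, 57 other genes of Toll-like receptor signalling were counted, of which 47 could be tested in the 4-month mice. All 12 that were called were higher, and the median log2 fold change over the 47 was 0.05. Among the 12 were 2 of 3 tested other receptors, 2 of 7 co-receptors and chaperones, 1 of 4 adaptors, 3 of 8 transcription factors and 4 of 6 induced targets. Of 12 induced targets listed, 6 passed the filter on low counts, and Ccl3 and Ccl4 passed it only through the APP mice. Cxcl10, at 1 to 11 reads per wild-type mouse, also needed the APP mice to pass it. The share of targets called therefore depends on the filter. None of 13 kinases and ubiquitin ligases (such as Irak4 and Traf6) and none of 6 inhibitors (such as Tnfaip3 and Nfkbia) was called.

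The surface partner of Ly86, Cd180, rose from 1.25, 2.17 and 3.17 CPM (lowest, median and highest) to 7.90, 11.3 and 11.7 CPM (log2 fold change 2.29, standard error 0.1795, adjusted p = 1.08e-07). Ly86 and its partner thus both stood higher in every APP mouse. Unc93b1, which carries nucleic-acid-sensing receptors to the endosome, had a log2 change of 0.84 (standard error 0.0843, adjusted p = 2.74e-06), at 13.7 ± 0.596 CPM in wild-type and 24.4 ± 3.44 CPM in APP mice (SD, n = 6 each). The interferon regulatory factors Irf8 and Irf5, of which Irf8 is a factor of the microglial lineage, changed by 1.45 and 0.96 (adjusted p = 6.75e-08 and 5.46e-06). Pik3ap1, an adaptor between receptors and phosphoinositide 3-kinase, changed by 1.01 (adjusted p = 9.91e-04).

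Among the induced targets, the chemokine genes Ccl3 and Ccl4 changed most. Ccl3 was counted with 0 to 4 reads per wild-type mouse and 89 to 176 reads per APP mouse, and Ccl4 with 0 to 3 and 24 to 63 reads. Their fitted log2 fold changes were 5.58 (standard error 0.334, adjusted p = 3.06e-09) and 4.72 (standard error 0.469, adjusted p = 2.40e-06), which rest on 12 and 7 reads in all wild-type mice together. Il1a, a cytokine gene, changed by 1.46 (standard error 0.227, adjusted p = 4.39e-04). The other 4 called genes, named after their values were seen, were Tlr12 (1.30), Irf7 (1.21), Tlr6 (0.90) and Cxcl10 (2.68), with adjusted p from 0.00107 to 0.0231. Ly96 (MD-2), the partner that Tlr4 needs to bind lipopolysaccharide, was not called (log2 fold change -0.21, adjusted p = 0.780), nor were the adaptors Tirap and Ticam1 (-0.10 and -0.05, adjusted p = 0.857 and 0.910).

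**Figure D4:**
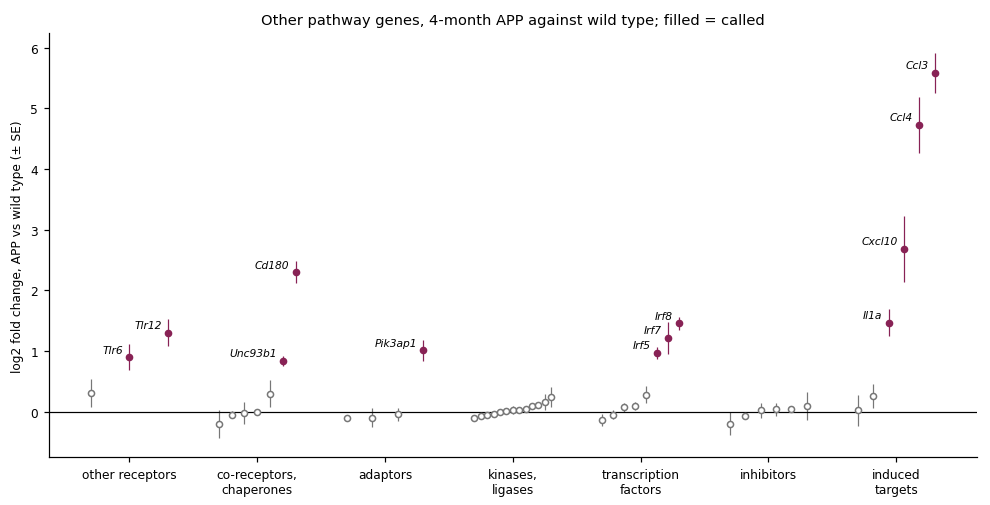
Log2 fold change (vertical axis, ± 1 standard error) of the 47 other pathway genes tested in 4-month APP against wild-type mice, placed by role. Filled points with names were called and open points were not. The 12 called genes lie above 0.8, and none of the kinases, ligases and inhibitors is among them.

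In the dentate gyrus of the cross, mice labelled FMN2 +/+ APP were compared with 3-month Fmn2+/+ mice, and those labelled FMN2-/-_APP with 3-month Fmn2-/- mice. The controls were mice outside the cross, so the APP transgene and any other difference between the cross and these mice cannot be told apart, and many genes differed. Reads on Fmn2 differed too: few against many in the first comparison, and many against few in the second. The APP transgene and the level of Fmn2 therefore cannot be told apart in either. Comparisons with the other 3-month group are given further on. In the first, 6 of the 10 genes were called, all higher: Tlr2, Ly86, Cd14, Tlr4, Tlr1 and Tlr7. Of 16830 genes tested 17.8% were called in either direction and 9.86% higher. The median log2 fold change was 0.73 over the 10 genes and 0.02 over all genes. In the second, 1 of 10 was called, Tlr7, which was higher, while 9.63% of 17027 genes were called in either direction and 5.1% higher.

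Cd14 was 1.48, 1.68, 1.84, 1.91 and 2.12 CPM in the 5 Fmn2+/+ mice of 3 months and 2.76, 4.43 and 4.95 CPM (lowest, median and highest) in the 9 mice labelled FMN2 +/+ APP. Ly86 was 7.18, 7.19, 7.50, 8.60 and 8.74 CPM in the former and 9.81, 16.7 and 28.3 CPM in the latter. For these 2 of the 10 genes every labelled FMN2 +/+ APP mouse was above every Fmn2+/+ mouse, as held for 9.48% of all genes. The log2 fold changes were 1.14 for Cd14 (standard error 0.172, adjusted p = 7.55e-05) and 1.22 for Ly86 (standard error 0.192, adjusted p = 1.09e-04).

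Tlr4 was at 1.04 ± 0.297 CPM (SD, n = 5) in Fmn2+/+ mice and at 2.21 ± 0.606 CPM (n = 9) in the mice labelled FMN2 +/+ APP, of which 8 were above all Fmn2+/+ mice (log2 fold change 1.08, standard error 0.238, adjusted p = 0.00178). Tlr2 also had 8 of 9 above, at a log2 change of 1.42 (standard error 0.379, adjusted p = 0.00669). Its spread was wide: 7 mice lay between 0.983 and 2.13 CPM, and replicates 8 and 9 stood at 4.52 and 5.12 CPM. Those 2 mice are the ones of this group that ran on lane 7 alone. Tlr7 (0.58, standard error 0.202, adjusted p = 0.0283) and Tlr1 (0.87, standard error 0.334, adjusted p = 0.0447) were near the threshold, and Tlr13 (0.31), Myd88 (0.12), Tlr3 (-0.09) and Tlr9 (-0.20) were not called.

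The calls of Tlr1 and Tlr7 depended on single mice. Tlr1 was no longer called without any 1 of the 5 Fmn2+/+ mice or of replicates 1, 6, 7, 8 and 9 labelled FMN2 +/+ APP (adjusted p from 0.0558 to 0.104), and Tlr7 without Fmn2+/+ replicate 1, 2 or 5 (adjusted p from 0.0509 to 0.0784) or without labelled FMN2 +/+ APP replicate 8 (log2 fold change 0.49, under the fold threshold). Without the filter on low counts Tlr1 was not called either (adjusted p = 0.0662). Since the mice labelled FMN2 +/+ APP have few Fmn2 reads, they were also compared with 3-month Fmn2-/- mice. Then 5 genes were called and Tlr2 was not (log2 fold change 0.96, adjusted p = 0.0582). Without the 2 mice rich in choroid plexus markers, chosen after seeing the data, 6 were called.

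Microglial markers moved here too: 9 of 16 were called higher and none lower in mice labelled FMN2 +/+ APP, at 455 to 661 CPM in sum against 375 to 423 CPM in 3-month Fmn2+/+ mice, with none at 0. Of 7 border macrophage markers 4 were called higher (8.30 to 30.5 CPM in sum against 7.09 to 14.2 CPM), and the 7 monocyte and neutrophil markers reached 2.28 CPM in sum, with 1 tested and none called. Other tissue markers moved as well: 4 of 5 choroid plexus markers were called higher (median log2 fold change 4.15), and 4 of 6 cortical layer markers (median -0.72) and 2 of 6 endothelial markers (median -0.15) lower. Without the 2 mice rich in choroid plexus markers, 1 of the 5, 4 of the 6 and 0 of the 6 were called in these directions, and 10 of 16 microglial markers were called higher. The part of these cells in the levels of the receptor genes was not tested.

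Of 45 other pathway genes tested, 5 were called higher and 3 lower, a share near the 17.8% of all genes called in this comparison. The 5 were Cd36 (log2 fold change 2.20) and Lbp (2.02), both listed under co-receptors and chaperones, the adaptor Pik3ap1 (0.87), the kinase Ikbke (0.85) and Irf8 (0.76). Cd36 had 3 to 26 reads per Fmn2+/+ mouse and passed the filter on low counts only through the mice labelled FMN2 +/+ APP. The 3 called lower were the ubiquitin ligase Traf3 (-0.57), the NF-kB subunit Rel (-0.55) and the prostaglandin synthase Ptgs2 (-0.77), with adjusted p from 4.40e-05 to 0.0215 over the 8. Lbp was at 28.7 and 14.7 CPM in the 2 mice rich in choroid plexus markers and at 2.19 to 5.24 CPM in the other 7, against 0.919 to 4.75 CPM in Fmn2+/+ mice, and without those 2 mice its log2 change was 0.99 (adjusted p = 0.0469).

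In the mice labelled FMN2-/-_APP, Tlr7 was at 2.33, 4.15 and 6.04 CPM against 2.37, 2.46, 2.64, 3.04 and 3.30 CPM in the 5 Fmn2-/- mice of 3 months. Of these 7 mice 6 were above all Fmn2-/- mice, at a log2 change of 0.65 (standard error 0.206, adjusted p = 0.0372). The call was lost without any 1 of Fmn2-/- replicates 1, 2, 4 and 6 or of labelled FMN2-/-_APP replicates 3, 4, 5 and 6 (adjusted p from 0.0536 to 0.0880), and without the filter on low counts (adjusted p = 0.0634). Ly86 passed the p threshold but not the fold threshold (0.43, standard error 0.129, adjusted p = 0.0298), and Cd14 had a log2 change of 0.54 (standard error 0.212, adjusted p = 0.0826). Since the mice labelled FMN2-/-_APP have many Fmn2 reads, they were also compared with 3-month Fmn2+/+ mice. Then 3 genes were called: Ly86 (0.70), Cd14 (0.69) and Tlr7 (0.67), with adjusted p from 6.05e-04 to 0.0187. Of 16 microglial markers 2, Fcrls and C1qb, were called higher and 1, P2ry12, lower, with the list at 443 to 674 CPM in sum against 420 to 500 CPM. Of 44 other pathway genes tested, Cd36 (3.28) and Irf3 (0.52) were called higher and Ptgs2 (-0.74) and Ly96 (-0.75) lower, a share near the 9.63% of all genes called. Cd36 had 2 to 11 reads per Fmn2-/- mouse and passed the filter on low counts only through the mice labelled FMN2-/-_APP. Of tissue markers, 2 of 6 endothelial, 1 of 6 cortical layer and 1 of 5 choroid plexus markers were called lower, and the Fmn2-/- group holds the 1 choroid-rich mouse.

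Within the cross, none of the 10 genes was called between mice labelled FMN2-/-_APP and FMN2 +/+ APP, where 0.774% of 16656 genes were called. At an unadjusted p under 0.05 stood 5 of them (Ly86, Tlr3, Tlr4, Cd14 and Tlr2), each lower in the mice labelled FMN2-/-_APP, beside 2772 of the 16656 genes. DESeq2 called 1 of the 10, Ly86 (adjusted p = 0.0465). Ly86 was at 10.5, 12.3 and 16.9 CPM in the 7 mice labelled FMN2-/-_APP and at 9.81, 16.7 and 28.3 CPM in the 9 labelled FMN2 +/+ APP. The groups overlapped, with a log2 change of -0.54 (standard error 0.168, adjusted p = 0.112). Cd14 was at 2.09, 2.81 and 4.81 CPM against 2.76, 4.43 and 4.95 CPM, also overlapping (log2 fold change -0.47, standard error 0.179, adjusted p = 0.194).

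Tlr2 was at 0.766, 1.13 and 2.22 CPM in the mice labelled FMN2-/-_APP and at 0.983, 1.76 and 5.12 CPM in those labelled FMN2 +/+ APP (log2 fold change -0.82, standard error 0.338, adjusted p = 0.229). With lane as a term and the deeper run of each mouse sequenced in 2 runs the value was -0.44 (adjusted p = 0.324). Tlr4 differed by -0.64 (standard error 0.234, adjusted p = 0.174) and Tlr3 by -0.27 (standard error 0.0950, adjusted p = 0.163), while Tlr1 (-0.38), Tlr9 (0.18), Tlr7 (0.07), Tlr13 (-0.06) and Myd88 (-0.02) had adjusted p of at least 0.585.

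Cd14 was called without labelled FMN2-/-_APP replicate 2, the highest of its group (log2 fold change -0.64, adjusted p = 0.0446), and Ly86 without labelled FMN2 +/+ APP replicate 4, the lowest of its group and 1 of the 2 mice rich in choroid plexus markers (log2 fold change -0.62, adjusted p = 0.0467). Without both such mice none was called. None of 16 microglial markers and none of 45 other pathway genes was called, and of 11 tested genes of microglia near plaques 1 was, Clec7a, which was lower in the mice labelled FMN2-/-_APP (log2 fold change -2.68, adjusted p = 0.0267). The median log2 fold change was -0.32 over the 10 receptor pathway genes, -0.13 over the microglial markers and 0.01 over all genes.

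In mice without amyloid at 3 months of age, none of the 10 genes was called between Fmn2-/- and Fmn2+/+ mice, with a fold threshold of 0.25 on the log2 scale. Of 16630 genes tested 0.0301% were called, 1750 had an unadjusted p under 0.05, and DESeq2 called 90 genes but none of the 10. Ly86 alone of the 10 had an unadjusted p under 0.05 (p = 0.0257 and adjusted p = 0.417 in edgeR's test). It was at 8.09, 8.50, 9.95, 10.01 and 10.8 CPM in Fmn2-/- mice and at 7.18, 7.19, 7.50, 8.60 and 8.74 CPM in Fmn2+/+ mice, with 3 Fmn2-/- mice above all Fmn2+/+ mice (log2 fold change 0.27, standard error 0.105). Tlr2 had the largest estimate, 0.46 (standard error 0.268, adjusted p = 0.566). It rested on 5 overlapping values per group, 0.832, 0.838, 1.19, 1.42 and 1.76 CPM in Fmn2-/- and 0.687, 0.740, 0.754, 0.839 and 1.35 CPM in Fmn2+/+ mice. The other 8 estimates lay between -0.24 (Tlr9) and 0.17 (Myd88), and none of 42 other pathway genes and of 16 microglial markers was called. All Fmn2+/+ and 1 Fmn2-/- mouse ran on lane 5 and the other 4 on lane 6. With lane as a term, 6 of the 10 estimates changed sign, none of them called.

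At 8 months again none of the 8 genes that passed the filter was called, beside 1.13% of 14665 genes, and DESeq2 called none of them either. At an unadjusted p under 0.05 stood 1 of the 8, Tlr3, beside 3419 of the 14665 genes. Tlr1 and Tlr9 had too few reads to be tested, at 1 to 21 and 2 to 25 reads per mouse in the Fmn2+/+ group. Tlr3, the receptor for double-stranded RNA, was at 20.1, 20.7, 21.1, 21.3 and 24.1 CPM in the 5 Fmn2-/- mice and at 14.3, 18.5 and 18.9 CPM in the 3 Fmn2+/+ mice. The groups did not overlap, and for how many of all genes this held was not counted. The log2 fold change was 0.36 (standard error 0.116, p = 0.00876 and adjusted p = 0.112 in edgeR's test). Astrocyte markers also stood apart: 6 of them summed to 4878 to 5508 CPM in Fmn2-/- and 4186 to 4591 CPM in Fmn2+/+ mice, with 1 called higher and a median log2 change of 0.21, and their part in the level of Tlr3 was not tested. Tlr3 passed the threshold without Fmn2+/+ replicate 2 (0.44, adjusted p = 0.0221), was 0.20 without Fmn2+/+ replicate 1 (adjusted p = 0.478), and was 0.22 with a correction for exon length and GC content (adjusted p = 0.311), 0.20 with lane as a term (adjusted p = 0.475) and 0.36 with Fmn2-/- mice 2 and 3 summed (adjusted p = 0.181). The lowest estimate, 0.15 (adjusted p = 0.725), came from the correction together with a replicate block. Fmn2+/+ replicate 1, at 14.3 CPM of Tlr3, was the only library of 8 months on lane 6 and the deepest of that age (43921030 reads).

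Of the other genes at 8 months, Tlr2 had a log2 change of 0.58 (standard error 0.311, adjusted p = 0.280), with Fmn2-/- mice at 0.854, 1.18, 1.30, 1.53 and 2.07 CPM and Fmn2+/+ mice at 0.895, 0.909 and 1.04 CPM. Of the 5 Fmn2-/- mice 4 were above all Fmn2+/+ mice. Ly86 was -0.20 (standard error 0.188, adjusted p = 0.539), and Fmn2-/- replicate 5 at 12.4 CPM stood apart from the other 4 at 6.99 to 7.91 CPM. The estimates of Tlr4 (0.47), Tlr13 (0.33), Tlr7 (0.26), Cd14 (0.17) and Myd88 (0.08) had adjusted p of at least 0.292. None of 36 other pathway genes and none of 16 microglial markers was called. The interaction of age and genotype called none of the 10 genes, beside 3.73% of 17046 genes, nor did DESeq2. The interaction left 2 of the 10 at an unadjusted p under 0.05, beside 3910 of the 17046 genes. Its estimates were 0.43 for Tlr3 (standard error 0.174, p = 0.0237 and adjusted p = 0.150 in edgeR's test) and -0.49 for Ly86 (standard error 0.214, p = 0.0346 and adjusted p = 0.1798), and the adjusted p was at least 0.577 for the other 8. Cnpy3, a chaperone of Toll-like receptors, was the 1 of 45 other pathway genes that was called (-0.33, adjusted p = 0.0220).

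Across the 46 mice, deviations of each gene from its own group's mean log2 level were compared with those of the 14755 genes of at least 1 CPM on average. These mice share sequencing lanes, and Tlr1 fell under the minimum. Among the 3 genes most alike for Cd14 were Plek (Pearson r = 0.638) and C1qa (0.599). For Ly86 the genes most alike were Lcp1 (0.723), C1qb (0.696) and Gfap (0.676). Cd14 and Ly86 were the most alike pair within the set (r = 0.537). For Tlr2 they were Elf4 (0.684), Eaf1 (0.676) and Ctsd (0.672), and for Tlr3 Bmpr1b (0.696), Nr3c1 (0.694) and Asf1a (0.686). Tlr4 had Ston1 (0.750), Timp3 (0.742) and Vwa5a (0.731), Tlr7 had Txnrd1 (0.733), Camsap1 (0.685) and Hcfc2 (0.684), and Myd88 had Foxd1 (0.627), Tgif1 (0.598) and Dnase2a (0.598). Those of Tlr9 (Tgfbrap1, Unc13c and Ctnnd2) and Tlr13 (Eif5, Gm14569 and Rnf144b) reached at most 0.565 and 0.547, and genes outside the 10 are listed by this measure alone.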

How the data were processed

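RNA was extracted with TRIZOL and TruSeq v2 libraries were sequenced. The authors aligned reads to mm10 with STAR, with some parameters other than the defaults, and counted them per gene with HTSeq (intersection-non-empty). The deposited files hold these read counts, without normalization, for 48709 Ensembl genes. The 2 runs each of 2 mice were summed, giving 46 mice from 48 files. Groups came from the sample labels, which do not say whether mice of a group were littermates, and p-values measure the spread between these mice.

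Symbols, exon lengths and GC content came from GENCODE M21. Counts were tested with edgeR 4.0.16 in R 4.3.3 (TMM, filterByExpr, quasi-likelihood test, Benjamini-Hochberg adjustment over all genes tested) on the mice of each comparison alone. The standard error is the absolute log2 fold change divided by the square root of F. CPM used TMM factors over all 46 mice, so folds come from the fits and not from printed means. Exact permutation tests used scipy 1.17.1 on log2 CPM with a prior count of 0.5. Named genes were the 10 members, the called pathway genes with the smallest adjusted p (at most 8 per comparison), and the 3 genes most alike, of which 1 is not reported here. The members and gene lists were chosen with earlier results of these data known, so that no list is independent evidence. The test was checked on simulated counts. DESeq2 1.42.0, other size factors, no low-count filter (at least 1 read), a replicate block, lane, length and GC correction, other controls, summed mice and leaving out each mouse were the alternatives, and leaving out 2 mice rich in choroid plexus markers was chosen after seeing the data.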

Additional observations from a re-analysis of the deposited data

Results flagged for a closer look

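In 4 of 70 sets of 4 to 10 mice, 1 mouse stood apart from the rest of its group by Dixon's test, while about 5% would do so by chance. Tlr1 in 8-month Fmn2-/- mice had its highest value, 1.198 CPM, in replicate 2, against 0.597 CPM in the next mouse. Tlr2 in 3-month Fmn2+/+ mice was 1.35 CPM in replicate 2, against 0.839 CPM in the next. Cd14 in mice labelled FMN2-/-_APP was 4.81 CPM in replicate 2, against 3.02 CPM in the next, and without this mouse Cd14 was called lower in that group than in mice labelled FMN2 +/+ APP (log2 fold change -0.64, adjusted p = 0.0446). Ly86 in 8-month Fmn2-/- mice was 12.4 CPM in replicate 5, against 7.91 CPM in the next. The cause was not tested in any of these.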

How the results depend on the processing

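Of 1266 refits of single genes 1190 kept direction and call. The 6 calls in the 4-month APP mice held in all 16 alternatives, and with the replicate block none was lost. Without 1 mouse the genes called numbered 0 to 1 at 8 months, 0 to 1 within the cross, 4 to 6 for mice labelled FMN2 +/+ APP and 0 to 1 for those labelled FMN2-/-_APP. DESeq2 called 1 within the cross. For mice labelled FMN2-/-_APP, 0 were called with no low-count filter and 3 against 3-month Fmn2+/+ mice.

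Directions changed only in genes that were not called. At 3 months lane as a term gave 0.38 for Tlr1, -0.0526 for Tlr2, -1.06 for Tlr4, -0.19 for Tlr7, -0.18 for Tlr13 and -0.27 for Cd14, on the 1 Fmn2-/- mouse that shares lane 5. The replicate block gave 0.0534 for Tlr3, or 0.11 with length and GC correction. Within the cross, lane gave 0.00067 for Tlr13 and 0.0093 for Myd88. The other control gave 0.046 and -0.041 for Tlr9 and Myd88 in mice labelled FMN2 +/+ APP, and -0.0119 and 0.12 in those labelled FMN2-/-_APP. Myd88 was 0.0559 in the interaction with length and GC correction. Leaving out 1 mouse at 3 months gave -0.16 to 0.0438 for Tlr1, -0.16 to 0.19 for Tlr4, -0.0526 to 0.0779 for Tlr7 and -0.023 to 0.27 for Tlr13. Within the cross it gave -0.0356 to 0.18 for Tlr7, -0.11 to 0.0178 for Tlr13 and -0.0859 to 0.0218 for Myd88. It gave -0.0229 to 0.0555 for Myd88 in the 4-month mice, -0.0442 to 0.32 for Tlr2 in mice labelled FMN2-/-_APP, and -0.0924 to 0.29 for Tlr2 and -0.0666 to 0.22 for Cd14 in the interaction. The cause was not tested.

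Counts over all genes moved more. At 3 months the count was 5, but 90 with DESeq2, 14 without the filter, 2 with the block and 3 with other size factors, length and GC correction or lane, and 3 to 49 without 1 mouse. At 8 months it was 166, but 697 with DESeq2, 1124 without the filter, 4 with the block (6 with length and GC correction), 34 with that correction alone, 3 with lane and 5 with mice 2 and 3 summed, and leaving out 1 mouse gave 4 to 3087. Within the cross it was 129, but 357 with DESeq2 and 56 without the 2 mice rich in choroid plexus markers. The other control gave 1857 in place of 2993, and 2807 in place of 1640. The interaction gave 635, but 1414 with DESeq2, 399 without the filter, 26 with length and GC correction 227 with mice summed and 8 to 2791 without 1 mouse. Deviations of same-numbered mice correlated over 0.1 in 1 of 4, 0 of 3, 4 of 7 and 2 of 6 pairs (3-month, 8-month, cross and 4-month comparisons). In the cross, same-numbered mice also ran on the same lanes, so number and lane cannot be told apart there. Within the cross the replicate block, which drops replicates 8 and 9 labelled FMN2 +/+ APP, gave -0.39 for Tlr2 (adjusted p = 0.496), and it called none of the 10 genes there or at 3 months, and none of the 7 it could test at 8 months. The shallow libraries of 8 months limit Tlr1 and Tlr9 most.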
